A study of Mus musculus with 32 samples.

Results

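Brain transcriptomes of female mice homozygous for human APOE4 (E4/4) were set against those of female mice homozygous for human APOE3 (E3/3), all given vehicle. There were 4 E4/4 mice and 4 E3/3 mice, all female and all given phosphate-buffered saline (PBS), which is the vehicle. These 8 samples were chosen by their titles from the 32 of the series, in which mice of both genotypes and both sexes received either the 4F peptide, labelled D4F, or PBS. Every mouse was 10.5 months old at the start, was dosed daily for 12 weeks and was 13.2 months old when brain tissue was taken. All 8 mice therefore shared sex, age, vehicle and a humanized APOE locus, and their labels differed in the APOE allele. The numbered library names also fall into separate runs by genotype, with every E4/4 name before every E3/3 name. The labels state no batch, and anything that goes with that order cannot be told apart from genotype. The labels give neither the part of the brain that was homogenized nor the promoter that drives the human alleles.

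APOE is the main lipid-carrying protein of the brain. It is secreted chiefly by astrocytes, is loaded with cholesterol and phospholipid by the transporters ABCA1 and ABCG1, and is taken up by receptors of the low-density lipoprotein (LDL) receptor family. The APOE4 form carries less lipid than APOE3 and is the strongest common genetic risk factor for late-onset Alzheimer's disease. Its risk has been described as greater in women than in men, which gives interest to a contrast made within females.

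Library totals were 19.6, 36.8, 44.4 and 33.3 M (mega) counts in E4/4 and 22.8, 22.3, 20.5 and 35.8 M in E3/3, for replicates 1 to 4 of each. A gap at 26 M divides them into a lower depth class (1 E4/4 and 3 E3/3 libraries) and a higher one (3 E4/4 and 1 E3/3 libraries), so depth and genotype were partly entangled. Totals did not differ beyond their spread by an exact two-sided permutation test (p = 0.343, 70 divisions, smallest possible p 0.0286). The sex labels held, with at least 10533 counts of Xist, the RNA of the inactive X chromosome, in each female library and at most 140 in each male one. The human alleles have no gene entry of their own in the table. Mouse Apoe was at 2.19, 3.02, 1.75 and 3.4 counts per M library counts (CPM, scaled by the trimmed mean of M-values, TMM) in E4/4 and at 3.03, 2.71, 2.85 and 2.55 CPM in E3/3, which checks neither allele. Where a gene differs in such tissue RNA, fewer cells of a type and less RNA per cell cannot be told apart.

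No gene passed an adjusted p below 0.05 in the female vehicle contrast. Of 57010 genes measured, 18134 had enough counts to be tested with edgeR's quasi-likelihood test, and the smallest Benjamini-Hochberg adjusted p was 0.124, shared by 347 genes. At an unadjusted p below 0.05 there were 3504 genes (19.3% of those tested), 1877 higher in E4/4 (10.4%) and 1627 lower (8.97%), and their median absolute log2 fold change was 0.38. The 4 E4/4 libraries lay wholly above or below the 4 E3/3 libraries in 1610 genes (8.88%), above in 921 (5.08%) and below in 689 (3.8%). A median biological coefficient of variation of 16.8% within groups was the scale of the mouse-to-mouse spread.

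The count of calls differed widely between fits. The same contrast in a fit of all 32 libraries, where 8 groups share the estimate of spread, called 2097 of 20298 genes (10.3%), 1141 higher (5.62%) and 956 lower (4.71%). Of these, 2068 were tested in the 8 libraries, all 2068 with the same sign and 2051 at an unadjusted p below 0.05. Both fits take the fold changes of this contrast from the same 8 libraries (median shift −0.006). The shared signs, and a call in the wider fit, are therefore no separate evidence for a gene. With depth class as a term in that fit 780 were called (3.84%). Within the 8 libraries DESeq2 called 990 of the 12155 genes to which it gave an adjusted p (8.14%). There limma-voom called 0 of 18134, with 3556 at an unadjusted p below 0.05 (19.6%). Leaving out E3/3 replicate 4 alone gave 1701 calls (9.53%), 1078 higher (6.04%) and 623 lower (3.49%). Genes are therefore given by their values, with the unadjusted p and the overlap of the groups as description, and called only where a fit is named.

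Base composition ordered the differences. Across 17322 genes with annotated transcripts the log2 fold change was lower the higher the GC content of the transcript (Pearson r = −0.47, across genes, which share the 8 libraries and are not independent). Genes under 40% GC had a median log2 fold change of 0.36 (1146 genes, 493 higher and 4 lower at an unadjusted p below 0.05), and genes of 60% GC and over had −0.24 (742 genes, 4 higher and 258 lower). The median GC content was 42.2% in the genes higher at that p, 56.2% in those lower and 49.6% in all. The starts of the coding sequences of 4 of the genes with the smallest p, picked as examples, are given here. They come from GENCODE M21 transcripts on GRCm38, 90 bases each from the ATG, 5′ to 3′, with G and C in capitals.
Synpr: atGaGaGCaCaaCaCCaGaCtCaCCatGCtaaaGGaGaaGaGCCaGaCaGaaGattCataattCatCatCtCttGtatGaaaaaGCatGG
Xpo1: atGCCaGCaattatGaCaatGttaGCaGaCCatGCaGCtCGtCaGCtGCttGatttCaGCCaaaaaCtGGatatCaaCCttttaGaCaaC
Pnpla2: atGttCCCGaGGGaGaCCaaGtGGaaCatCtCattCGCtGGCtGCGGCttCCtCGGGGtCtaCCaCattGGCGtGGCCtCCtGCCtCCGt
Wdtc1: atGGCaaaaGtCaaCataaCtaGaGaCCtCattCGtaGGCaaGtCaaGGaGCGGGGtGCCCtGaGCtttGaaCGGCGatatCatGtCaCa
The first 2 were higher in E4/4 and the last 2 lower. Synpr (chr14:13284780-13616340, plus strand) holds 37 G or C bases in the stretch shown and Xpo1 (chr11:23256041-23298249, plus strand) holds 38. Pnpla2 (chr7:141455198-141460743, plus strand) holds 55 and Wdtc1 (chr4:133292459-133353481, minus strand) holds 44. The Wdtc1 stretch is therefore 48.9% GC, which is not GC-rich. Over the whole coding sequence, the third codon position was G or C in 53.8% of Synpr and 34.1% of Xpo1 codons, against 68.5% of Pnpla2 and 70.6% of Wdtc1 codons.

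Each library's deviation from the mean of the 8 was also ordered by GC content. In genes under 40% GC the E4/4 libraries lay 0.14, 0.19, 0.23 and 0.21 log2 units above the mean of the 8, while E3/3 replicates 1 to 3 lay at −0.35, −0.28 and −0.16 and replicate 4 at 0.08. The slope of this deviation on GC content, in log2 units per percent GC, was −0.0108, −0.0119, −0.0159 and −0.0129 in E4/4 and 0.0258, 0.0156, 0.0142 and −0.0041 in E3/3. Deviations sum to 0 over the 8 libraries, so the signs in one genotype partly mirror those in the other, while the difference between the genotypes does not depend on the centring. The groups did not overlap (exact two-sided permutation p = 0.0286, the smallest possible, and 0.143 adjusted over 5 library measures). Within the lower depth class the difference between genotypes correlated with GC at r = −0.37 across genes, and within the higher class at −0.14. When GC and length trends were removed from each library, 1948 genes were at an unadjusted p below 0.05 (10.7%), 1069 higher (5.9%) and 879 lower (4.85%), and 0 passed the adjustment, with r = −0.002. Of 76 genes named here at an unadjusted p below 0.05, 46 then had a difference smaller by more than 1.5 times, 0 turned direction and 50 were still at that p. The part of base composition in any single gene's difference was not tested.

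**Figure D1:**
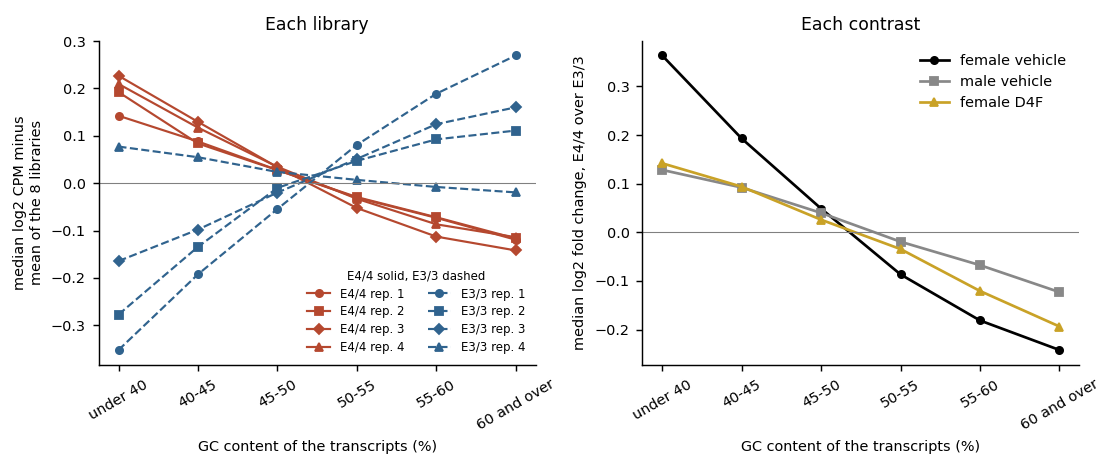
Left, median log2 CPM of genes in 6 classes of transcript GC content, relative to the mean of the 8 female vehicle libraries, for each library (E4/4 solid, E3/3 dashed). Right, median log2 fold change of E4/4 over E3/3 in the same classes in female vehicle, male vehicle and female D4F mice. All 4 E4/4 lines slope down from AT-rich to GC-rich genes, E3/3 replicates 1 to 3 slope up, and E3/3 replicate 4 slopes slightly down.

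Among the 5 genes with the smallest p on the higher side was Synpr, which encodes synaptoporin, a synaptic vesicle membrane protein. It had 97, 130, 114 and 115 CPM in E4/4 and 66.5, 68.8, 58.8 and 73.7 CPM in E3/3 (log2 fold change 0.77, SE 0.11). Every E4/4 library was above every E3/3 library, and the mean log2 difference was 0.59 in the lower depth class and 0.7 in the higher. Rap1a, a small GTPase of cell adhesion and signalling, had 36.2, 39.9, 39.1 and 41.8 CPM in E4/4 and 26.8, 27.3, 24.8 and 28.8 CPM in E3/3. Xpo1, the main nuclear export receptor, had 85.2, 103, 96.3 and 89.7 CPM in E4/4 and 54.4, 51.2, 54.3 and 72.3 CPM in E3/3. Both genes were without overlap, and E3/3 replicate 4 was the E3/3 library nearest to E4/4. Ednrb, an endothelin receptor of astrocytes (log2 fold change 0.68), and Prkar2b, a regulatory subunit of protein kinase A (0.72), were also without overlap. All 5 had an adjusted p of 0.124 by edgeR's quasi-likelihood test, and all 5 were called in the fit of 32 libraries (adjusted p between 0.00047 for Xpo1 and 0.015 for Prkar2b). The log2 fold changes were 0.45 for Synpr, 0.23 for Rap1a, 0.42 for Xpo1, 0.55 for Ednrb and 0.61 for Prkar2b once GC and length trends were removed.

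On the lower side, Pnpla2, the adipose triglyceride lipase that starts the breakdown of stored triglyceride, had 16.5, 15.4, 21.2 and 15.8 CPM in E4/4 and 28.9, 25.5, 28.4 and 26 CPM in E3/3 (log2 fold change −0.66, SE 0.12). Cers1, a neuronal ceramide synthase, had 31.9, 25.8, 29.3 and 27 CPM in E4/4 and 48.6, 43.6, 53.4 and 36.3 CPM in E3/3 (−0.67, SE 0.12). Neither overlapped, although Cers1 is transcribed together with Gdf1, so its reads cannot be assigned to Cers1 alone. Wdtc1, which in mice limits fat storage, had 63.8, 53.4, 57.5 and 52.9 CPM in E4/4 and 83.7, 83.3, 83.4 and 71.6 CPM in E3/3 (−0.5, SE 0.1). The unnamed gene 1700003E16Rik was lower by a similar amount (−0.63). Fcgbp, an IgG-binding mucus protein, was nearly absent, with 0, 3, 2 and 1 counts in E4/4 and 10, 11, 12 and 14 counts in E3/3. At such counts no fold is given. All 5 genes had an adjusted p of 0.124 by edgeR's quasi-likelihood test and were called in the fit of 32 libraries. After removal of GC and length trends Pnpla2 had −0.46, Cers1 −0.41 and Wdtc1 −0.27.

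**Figure D2:**
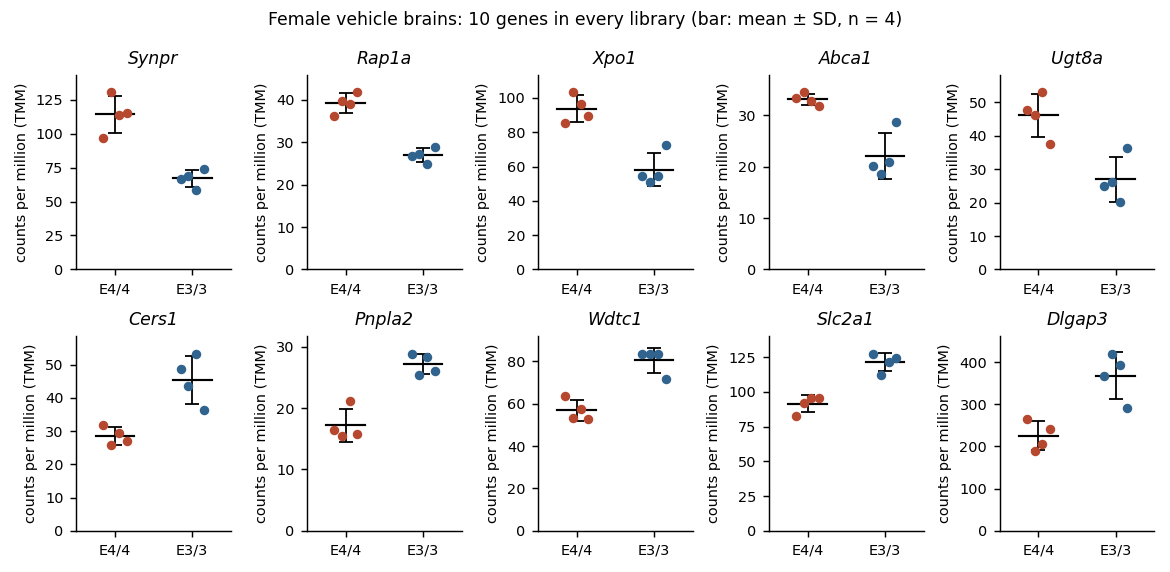
CPM (TMM-scaled) of 10 genes in each female vehicle library, E4/4 left and E3/3 right; points are mice, lines and bars are mean ± SD (n = 4). The E4/4 points lie above all E3/3 points for Synpr, Rap1a, Xpo1, Abca1 and Ugt8a and below them for Cers1, Pnpla2, Wdtc1, Slc2a1 and Dlgap3.

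Among 15 lipid-exporting ABC transporters, Abca1 had the largest log2 fold change. This transporter loads APOE with cholesterol and phospholipid, and its gene lies at chr4:53030787-53159895 on the minus strand. It had 33.3, 34.5, 32.8 and 31.8 CPM in E4/4, a narrow range, and 20.2, 18.5, 20.9 and 28.7 CPM in E3/3 (log2 fold change 0.58, SE 0.13, adjusted p = 0.124 by edgeR). The groups did not overlap. The difference was 0.74 in the lower depth class and 0.2 in the higher, where E3/3 replicate 4 stands alone. It was 0.51 with GC and length trends removed, and Abca1 was called in the fit of 32 libraries (adjusted p = 0.0033). Abcg1, its partner in lipid efflux, was level at 75.6, 75.4, 77.7 and 81.6 CPM in E4/4 and 80.5, 74.5, 74.2 and 77 CPM in E3/3. Of 15 lipid-exporting ABC transporters, 2 were higher and 1 lower at an unadjusted p below 0.05, where all genes tested had 10.4% higher and 8.97% lower, with a median log2 fold change of 0.04 beside 0.00 over all genes. The other higher one was Abca8a (0.34).

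Of 18 receptor genes of the LDL receptor family, 2 were higher and 3 lower at that p, against 10.4% and 8.97% of all genes. Their median of −0.11 had no stable sign, being 0.13 in the lower and −0.23 in the higher depth class and 0.02 with GC and length trends removed. Lrp5, a Wnt co-receptor that can also bind APOE, had 8.7, 6.2, 8.19 and 5.91 CPM in E4/4 and 11.8, 10.2, 12 and 11.6 CPM in E3/3 (−0.66, SE 0.16). Lrp1b, a large endocytic receptor, had 28.5, 31.1, 31.9 and 32.9 CPM in E4/4 and 18, 17.8, 25.6 and 27.1 CPM in E3/3 (0.49, SE 0.14). Neither overlapped, and both were called in the fit of 32 libraries (adjusted p = 0.012 and 0.017). Lrp3 (−0.33, and −0.07 with GC and length trends removed) and the APOE and reelin receptor Vldlr (0.38) overlapped between groups. Lrp1, the major neuronal and glial uptake receptor for APOE, was at 508, 420, 407 and 412 CPM in E4/4 and 432, 538, 493 and 496 CPM in E3/3 (−0.17, unadjusted p = 0.17).

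Among cholesterol synthesis enzymes the few differences were all on the lower side. Of 23 genes of sterol synthesis 0 were higher and 5 lower at an unadjusted p below 0.05 (8.97% of all genes were lower), and 4 lay wholly below E3/3 (3.8% of all genes), while the list's median was −0.06. Pmvk, phosphomevalonate kinase, had 40.1, 36.1, 37.5 and 36.3 CPM in E4/4 and 60.9, 47.6, 58 and 43 CPM in E3/3 (−0.48, SE 0.12). Its neighbours in the mevalonate steps were Mvk (−0.37), which did not overlap, and Mvd (−0.33), which did. Fdft1, the squalene synthase, had −0.25 without overlap. With GC and length trends removed 1 of the 23 was lower at an unadjusted p below 0.05, where 4.85% of all genes were lower. The list's medians within the lower and higher depth classes were 0.00 and −0.19. Soat1, which esterifies cholesterol for storage, had 39, 37.4, 40.8 and 35.5 CPM in E4/4 and 30.6, 30.1, 27.2 and 35.7 CPM in E3/3 (0.3). Pltp, the phospholipid transfer protein, had 62.2, 65.2, 60.3 and 60.3 CPM in E4/4 and 113, 65.8, 70 and 71.9 CPM in E3/3 (−0.37), so that E3/3 replicate 1 set most of its difference.

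The differences in glucose-handling genes were mostly on the lower side. Of 27 genes of glucose uptake, glycolysis and pyruvate handling, 0 were higher and 11 lower at an unadjusted p below 0.05, where 8.97% of all genes were lower. The median was −0.18, with 9 of the 27 above 0. The fit of 32 libraries called 0 higher and 11 lower, where it called 4.71% of all genes lower. One gene, chosen after its values were seen, lay wholly above E3/3 without reaching that p, the neuronal glucose transporter gene Slc2a3 (0.18, unadjusted p = 0.077). Slc2a1, the glucose transporter GLUT1 of the blood-brain barrier and astrocytes, had 82.8, 91.8, 96 and 95.7 CPM in E4/4 and 128, 112, 122 and 124 CPM in E3/3 (−0.41, SE 0.09). The groups did not overlap, and the difference was −0.54 in the lower and −0.39 in the higher depth class. Pdk2, a kinase that holds back pyruvate entry into mitochondria, had 98.6, 77.8, 88.5 and 89 CPM in E4/4 and 126, 123, 137 and 105 CPM in E3/3 (−0.47, SE 0.11), again without overlap. Hk1, the brain's main hexokinase, had 404, 282, 288 and 299 CPM in E4/4 and 437, 484, 558 and 375 CPM in E3/3 (−0.54, SE 0.15). E4/4 replicate 1 and E3/3 replicate 4 met in the middle. Gapdh had 63.9, 61.6, 61 and 69.2 CPM in E4/4 and 105, 91, 99.2 and 64 CPM in E3/3 (−0.49), where E3/3 replicate 4 lay within the E4/4 range. Gapdh has many processed pseudogenes, so its count is uncertain. With GC and length trends removed 4 of the 27 were lower at an unadjusted p below 0.05, where 4.85% of all genes were lower. The median moved to −0.06.

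Among mitochondrially encoded transcripts the differences at an unadjusted p below 0.05 were all on the higher side, but the list's median turned between depth classes. Of 15 tested, 6 were higher and 0 lower at that p (10.4% of all genes were higher), with a median of 0.56. That median was −0.06 in the lower and 0.60 in the higher depth class, 0.29 with depth class as a term in the 8 libraries, and 0.27 without E4/4 replicate 2. By comparison, 30 nuclear genes of the respiratory chain had 3 higher, 2 lower and a median of 0.00. The large mitochondrial ribosomal RNA, mt-Rnr2, had 5070, 6976, 7640 and 6783 CPM in E4/4 and 4355, 4262, 4208 and 5117 CPM in E3/3 (0.56, SE 0.15). Only E4/4 replicate 1 and E3/3 replicate 4 overlapped. The ATP synthase subunit gene mt-Atp6 was at 199, 507, 216 and 368 CPM in E4/4 and 150, 135, 148 and 106 CPM in E3/3 (1.26, SE 0.3). The complex I genes mt-Nd3 (1.07) and mt-Nd6 (1.02) showed the same direction. These transcripts are AT-rich, and with GC and length trends removed 2 were higher and 2 lower and the median was 0.09. All genes had 5.9% higher and 4.85% lower in that fit. In the nuclear list, Uqcrc2, a core subunit of complex III, was higher without overlap (0.24), and Atp5d, a subunit of ATP synthase, was lower (−0.44). Nuclear copies of mitochondrial sequence share reads with some of these genes.

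Synaptic genes at an unadjusted p below 0.05 lay mostly on the lower side, though the list medians turned between depth classes. Of 30 synaptic vesicle and release genes, 1 was higher and 10 lower at that p (median −0.18), the higher one being Synpr, and of 30 postsynaptic density genes 5 were higher and 11 lower (median −0.15), where all genes had 10.4% higher and 8.97% lower. The vesicle median was 0.10 in the lower and −0.24 in the higher depth class, and the postsynaptic median 0.02 and −0.16. With depth class as a term in the 8 libraries the medians were −0.06 and −0.08. With GC and length trends removed 1 vesicle gene was higher and 5 lower, and 1 postsynaptic gene was higher and 4 lower. All genes then had 5.9% higher and 4.85% lower. Dlgap3, a scaffold of the postsynaptic density, had 265, 190, 205 and 241 CPM in E4/4 and 367, 420, 394 and 292 CPM in E3/3 (−0.71, SE 0.14). Dlg4, which encodes PSD-95, had 758, 664, 640 and 711 CPM in E4/4 and 950, 1119, 1125 and 774 CPM in E3/3 (−0.52, SE 0.13). Neither overlapped, and their differences were −0.57 and −0.49 in the lower and −0.47 and −0.21 in the higher depth class. Shank3, another scaffold (−0.42), did not overlap either, whereas Grm5, the glutamate receptor mGluR5, was higher without overlap (0.42). On the vesicle side, Syn1 had 626, 462, 453 and 488 CPM in E4/4 and 711, 850, 988 and 570 CPM in E3/3 (−0.62, SE 0.17). Syp, synaptophysin, was at 1446, 1215, 1265 and 1285 CPM in E4/4 and 1916, 1714, 2011 and 1416 CPM in E3/3 (−0.44), and Sncb, beta-synuclein, had −0.58. In Syn1 and Syp the overlap came from E4/4 replicate 1 and E3/3 replicate 4, and both genes were called in the fit of 32 libraries (adjusted p = 0.012 and 0.0064).

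Markers of brain regions varied within both genotypes. The summed level of 3 excitatory neuron markers was 5602, 3366, 3334 and 3937 CPM in E4/4 and 4300, 7520, 6904 and 5261 CPM in E3/3. Summed striatal markers were 381, 791, 844 and 1085 CPM in E4/4 and 1257, 570, 475 and 530 CPM in E3/3. In both sums E4/4 replicate 1 lay nearer to E3/3 replicates 2 to 4 than to the other E4/4 libraries, and E3/3 replicate 1 lay nearer to E4/4 replicates 2 to 4. The first axis of a multidimensional scaling plot, 31.6% of the variance, put E4/4 at −0.91, 0.91, 0.94 and 0.27 and E3/3 at 0.88, −1.17, −0.89 and −0.03, and did not divide the genotypes. Of 24 genes of cortical and hippocampal excitatory neurons 3 were higher and 4 lower at an unadjusted p below 0.05 (median −0.29). Over all genes 10.4% were higher and 8.97% lower at that p. Slc17a7, the vesicular glutamate transporter VGLUT1, had 1371, 869, 750 and 873 CPM in E4/4 and 1155, 1550, 1692 and 1251 CPM in E3/3 (−0.55), and Camk2a, a synaptic kinase, had −0.52. The median of the list was 0.21 in the lower and −0.53 in the higher depth class, so the direction was not shared. All 16 striatal genes had a log2 fold change above 0 (median 0.19), but their median was −0.64 and 0.75 in the lower and higher classes, and Pde10a, a striatal phosphodiesterase (0.5), was the only one at an unadjusted p below 0.05. The 13 olfactory bulb genes were likewise all above 0 (median 0.9), with 3 at that p, Tshz1 (0.58), Etv1 (0.4) and Nmb (0.73). Their 3 defining markers summed to 1.52, 26.8, 4.61 and 4.43 CPM in E4/4 and 8.31, 1.7, 2.03 and 4.49 CPM in E3/3, so that E4/4 replicate 2 stood apart. Without that library the list's median was 0.13, and it was −0.01 in the lower and 0.91 in the higher depth class. Of 20 genes of GABAergic interneurons, which release the inhibitory transmitter GABA, 2 were higher and 1 lower, Gad1 (0.42) and Npy (−0.53) among them. The part of these region markers in the synaptic differences was not tested.

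**Figure D3:**
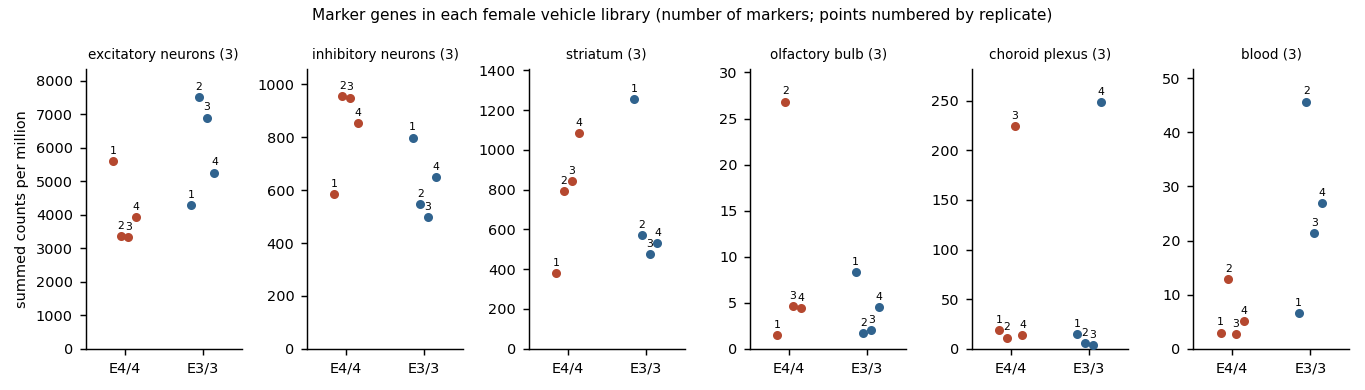
Summed CPM of 3 marker genes for each of 6 cell types or regions in every female vehicle library, E4/4 left and E3/3 right, with points numbered by replicate. Choroid plexus markers reach 224.5 CPM in E4/4 replicate 3 and 248.5 CPM in E3/3 replicate 4, against 3.85 to 19.2 CPM elsewhere.

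Differences in myelin genes at an unadjusted p below 0.05 were all on the higher side. Of 28 genes of myelin and mature oligodendrocytes 8 were higher and 0 lower at that p (10.4% of all genes were higher), and 6 lay wholly above E3/3 (5.08% of all genes), while the median over the list was 0.06, with 16 above 0. Ugt8a, which makes the myelin lipid galactosylceramide, had 47.8, 46.3, 53 and 37.5 CPM in E4/4 and 24.9, 26.3, 20.2 and 36.3 CPM in E3/3 (0.77, SE 0.17). Aspa, the aspartoacylase of oligodendrocytes, had 27.2, 24.4, 26.2 and 24 CPM in E4/4 and 15.9, 16.2, 13.3 and 22.6 CPM in E3/3 (0.57, SE 0.15), and Tspan2 had 0.53. None of the 3 overlapped, and in all 3 E3/3 replicate 4 was the E3/3 library closest to E4/4. Their differences ran from 0.68 to 1.01 in the lower depth class and from 0.13 to 0.31 in the higher. Mbp, myelin basic protein, was at 2854, 3106, 3180 and 2465 CPM in E4/4 and 2669, 3177, 2622 and 2792 CPM in E3/3 (0.04, unadjusted p = 0.74). With GC and length trends removed 9 of the 28 were higher and 0 lower at an unadjusted p below 0.05, and the median was 0.19. Over all genes 5.9% were higher and 4.85% lower in that fit. Among 15 genes of oligodendrocyte precursors 2 were higher and 0 lower, Lhfpl3 (0.78) among them.

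Astrocyte and microglial genes showed no shared direction. Of 24 astrocyte genes 2 were higher and 4 lower at an unadjusted p below 0.05. Aldh1l1, a folate enzyme used as a pan-astrocyte marker, had 59.9, 57.1, 64 and 66.8 CPM in E4/4 and 77.6, 89.9, 74.6 and 74.5 CPM in E3/3 (−0.35, SE 0.1), without overlap. Atp1b2 (−0.5), the bicarbonate transporter Slc4a4 (0.38) and the water channel Aqp4 (0.35) overlapped. Gfap, the filament protein of reactive astrocytes, was at 112, 153, 172 and 134 CPM in E4/4 and 226, 111, 114 and 122 CPM in E3/3 (−0.01), with E3/3 replicate 1 far above the rest. Of 26 microglial and complement genes 2 were higher, P2ry12 (0.36) among them, and 1 lower, the complement gene C1qa (−0.46). The C1qa difference turned between depth classes, at −0.87 in the lower and 0.24 in the higher. Trem2, the microglial lipid receptor, was at 13.4, 19.2, 20.2 and 21.5 CPM in E4/4 and 25.8, 17.5, 18 and 16.1 CPM in E3/3 (−0.05). Of 28 genes of the interferon response and antigen presentation 0 were higher and 1 lower. Over all genes 10.4% were higher and 8.97% lower at that p.

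Endothelial genes lay mostly on the lower side. Of 22 genes of endothelium and the blood-brain barrier, 0 were higher and 7 lower at an unadjusted p below 0.05 (8.97% of all genes were lower), and 5 lay wholly below E3/3 (3.8% of all genes), with a median of −0.28. Flt1, the VEGF receptor VEGFR1, had 68.1, 54.3, 52.2 and 52 CPM in E4/4 and 79.4, 89.7, 69.5 and 74.6 CPM in E3/3 (−0.47, SE 0.12). Cdh5, the junction protein VE-cadherin, had 12.5, 11.1, 11.3 and 12.3 CPM in E4/4 and 23.1, 17.1, 13.8 and 13.3 CPM in E3/3 (−0.51, SE 0.17), and the angiopoietin co-receptor Tie1 had −0.52. E3/3 replicate 1 was the highest for Cdh5 and Tie1, and it also had the most of the 3 meningeal markers (48.3 CPM, against 12.0 to 17.8 in the other E3/3 and 18.3 to 30.6 in E4/4). The list's median was −0.18 in the lower and −0.21 in the higher depth class. After removal of GC and length trends it was −0.19, and 5 were lower at that p, where 4.85% of all genes were lower. The list's median was −0.02 in male vehicle mice. Of 22 genes of pericytes, smooth muscle and fibroblasts 1 was lower, the pericyte receptor gene Pdgfrb (−0.42), and the list's median was −0.27. That median had no stable sign, being −0.32 in the lower and 0.24 in the higher depth class, 0.20 without E3/3 replicate 1, and 0.26 in male vehicle mice.

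Blood genes lay mostly on the lower side. Of 15 genes of haemoglobin and haem synthesis 0 were higher and 7 lower at an unadjusted p below 0.05, where all genes had 10.4% higher and 8.97% lower. Hba-a2, an alpha-globin gene with a near-identical copy that makes its count uncertain, was at 0.78, 1.29, 0.68 and 0.63 CPM in E4/4 and 0.78, 7.04, 3.41 and 5.31 CPM in E3/3 (−2.29, SE 0.56). Alas2, the haem synthesis enzyme of red cell precursors, was at 0.05, 0.26, 0 and 0.36 CPM in E4/4 and 0.22, 1.59, 1.43 and 0.83 CPM in E3/3. Summed blood markers were 2.98, 12.9, 2.66 and 5.12 CPM in E4/4 and 6.52, 45.7, 21.4 and 26.9 CPM in E3/3. Alas1, the haem synthesis enzyme of all cells, differed less but without overlap, at 46.9, 42.1, 43 and 43.4 CPM in E4/4 and 54.4, 58.7, 54.1 and 48.7 CPM in E3/3 (−0.3, SE 0.09). The part of these blood markers in other differences was not tested.

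The genes around Apoe on chromosome 7 were examined because alleles near a replaced gene can differ between lines. Of 32 tested neighbours 0 were higher and 8 lower at an unadjusted p below 0.05 (8.97% of all genes were lower), and 5 lay wholly below E3/3 (3.8% of all genes). The list's median was −0.22, with −0.38 in the lower and −0.06 in the higher depth class. Ppp1r37, a phosphatase regulator, had 200, 155, 162 and 162 CPM in E4/4 and 238, 268, 281 and 208 CPM in E3/3 (−0.55, SE 0.12). Clasrp (−0.29) did not overlap, while Rtn2 (−0.34) and Bcl3 (−1.44, at most 2.03 CPM in any library) did. With GC and length trends removed the list's median was −0.01 and 3 were lower at that p, Ppp1r37 among them (−0.32). Of all genes 4.85% were lower in that fit. In male vehicle mice the median was −0.04 and Ppp1r37 had −0.5 (adjusted p = 0.015 by edgeR in those 8 libraries).

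Some of the further named genes had 1 or 2 libraries apart from the rest of their group, and others did not. Bc1, a small neuronal RNA, was at 1.51, 1.87, 2.54 and 3.16 CPM in E4/4 and 10.8, 10.1, 10.2 and 1.58 CPM in E3/3, so E3/3 replicate 4 lay with E4/4. Of 9 genes in a list of structural and small noncoding RNAs, which also holds the protein-coding gene Lars2, 4 were higher and 1 lower. This was at an unadjusted p below 0.05, against 10.4% and 8.97% of all genes. Among them Rn7sk, which reached 3.49 and 7.87 CPM in E4/4 replicates 1 and 3, was at most 0.56 CPM in the other 6 libraries. Lars2, a mitochondrial tRNA synthetase, had 171, 68.7, 345 and 72 CPM in E4/4 and 66, 53.8, 49.1 and 71.4 CPM in E3/3 (1.45), with the same 2 E4/4 libraries high. Of 18 clock genes 1 was higher and 2 lower, Clock itself without overlap at 84.2, 76, 86.4 and 84.8 CPM in E4/4 and 50.7, 56.4, 63.4 and 69.9 CPM in E3/3 (0.46, SE 0.11, and 0.18 with GC and length trends removed), and Nr1d1, a repressor of the clock (−0.44). Homer1, whose short form is induced by activity, had 264, 141, 166 and 169 CPM in E4/4 and 108, 120, 126 and 141 CPM in E3/3 (0.58, and 0.16 with GC and length trends removed). Of 30 genes that respond to unfolded proteins or heat, 2 were higher and 2 lower, the chaperone genes Calr (−0.37) and Hsp90ab1 (−0.28) being lower.

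**Figure D4:**
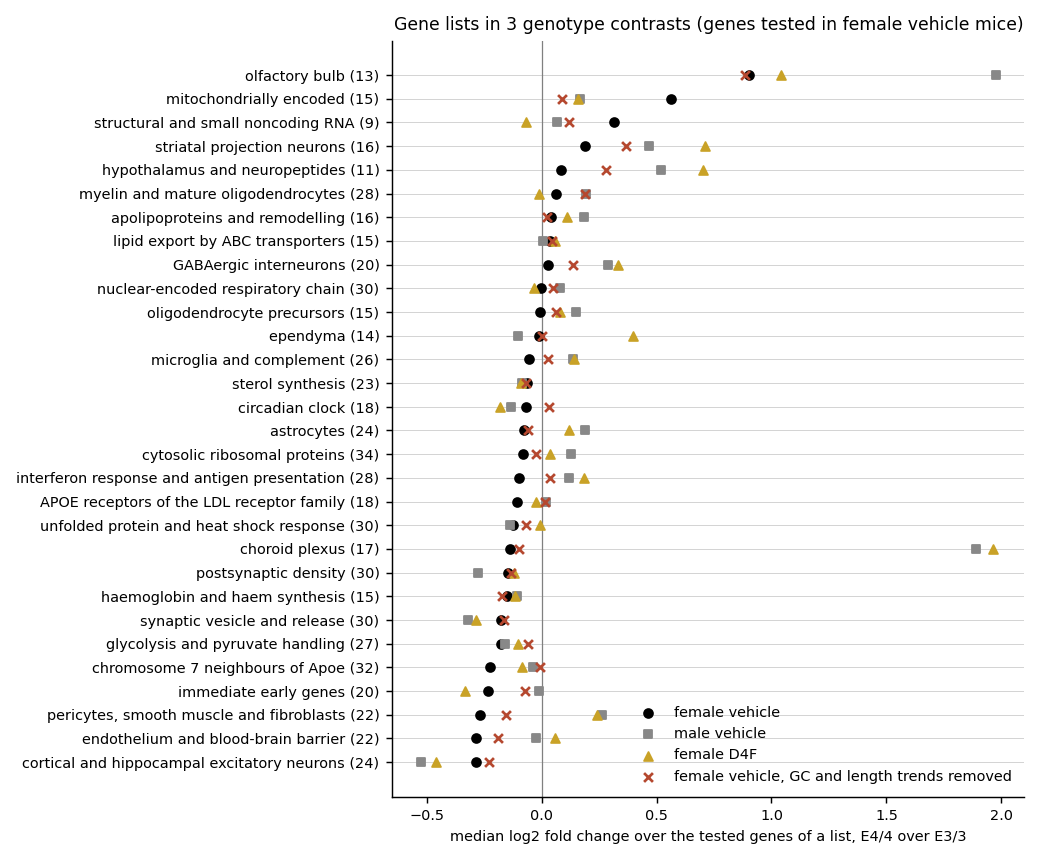
Median log2 fold change of E4/4 over E3/3 over the tested genes of 30 lists (number tested in brackets) in female vehicle, male vehicle and female D4F mice, and in female vehicle mice with GC and length trends removed. Olfactory bulb and mitochondrially encoded genes have the highest female vehicle medians, 0.9 and 0.56, and excitatory neuron and endothelial genes the lowest, −0.29 and −0.28. The olfactory bulb and mitochondrial medians are 0.13 and 0.27 without E4/4 replicate 2, and −0.01 and −0.06 within the lower depth class.

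The same allele contrast could be set beside males and beside females given D4F, which share no library with it. In those contrasts too, every E4/4 library name comes before every E3/3 name. Anything that goes with that order is common to all of them and cannot be told apart from genotype. In male vehicle mice a fit of 8 libraries called 741 genes (4%), 253 higher (1.36%) and 488 lower (2.63%), with edgeR's quasi-likelihood test. Of these 733 were tested in female vehicle mice, where 714 had the same sign and 393 were also at an unadjusted p below 0.05. Over 17923 genes tested in both, 71.9% had the same sign (Pearson r = 0.49, Spearman rho = 0.54, across genes). The male contrast also sloped with GC content (r = −0.18 across genes). Depth was partly entangled with genotype in male vehicle mice as well. Their totals were 45.1, 31.8, 34.0 and 33.1 M counts in E4/4 and 20.0, 23.6, 34.0 and 19.3 M in E3/3. The part of depth in the shared signs was not tested. Abca1 had a log2 fold change of 0.75 in male vehicle mice (adjusted p = 0.012 by edgeR) and 0.41 in female D4F mice (adjusted p = 0.055). Ednrb had 0.59 in male vehicle mice (adjusted p = 0.032), and Dlgap3 had −0.67 (adjusted p = 0.012). Of 75 genes named here at an unadjusted p below 0.05 in female vehicle mice and tested in males, 71 had the same sign there, 48 of these were also at that p and 21 were called. Several genes described above differed little in males, among them Prkar2b (0.23, unadjusted p = 0.287), Grm5 (0.06), Aldh1l1 (−0.03) and Tie1 (−0.01). The 4 with the opposite sign were Homer1 (−0.28), Pltp (0.05), Pdgfrb (0.02) and mt-Nd6 (−0.01). In female D4F mice 48 genes were called (0.261%), and 45 of the 48 had the same sign in female vehicle mice. Of these 45, 26 were also at an unadjusted p below 0.05 in female vehicle mice. Over 17891 genes tested in both, 69.9% had the same sign.

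Whether the allele difference itself depended on sex was tested as an interaction over the 16 vehicle libraries. It called 1 of 19465 genes (0.00514%) with edgeR's quasi-likelihood test, and 810 (4.16%) were at an unadjusted p below 0.05. The gene was Gm47283, annotated on chromosome Y, with a log2 fold change of 0.39 in females and −2.41 in males (difference 2.80, SE 0.40, adjusted p = 0.030). Female libraries held 2.97, 3.68, 3.56 and 2.3 CPM of it in E4/4 and 2.51, 1.59, 2.5 and 2.85 CPM in E3/3, where 4 genes of the Y chromosome, Ddx3y, Eif2s3y, Kdm5d and Uty, had at most 10 counts in any of these 8 libraries, so its reads cannot be placed on Y alone. List medians with opposite signs in the sexes, such as mural cells, were not tested for their difference.

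**Figure D5:**
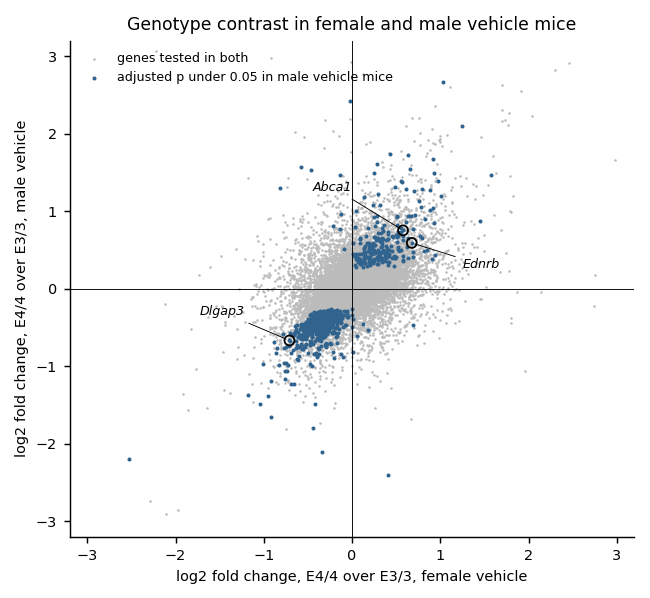
Log2 fold change of E4/4 over E3/3 in female vehicle mice (horizontal) and male vehicle mice (vertical), one point per gene tested in both, with genes at an adjusted p below 0.05 in males in blue and 3 named genes ringed. Most blue points lie in the lower left and upper right, where both sexes have the same sign.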

How the data were processed

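The deposited table holds raw read counts per gene name for 32 libraries from brain tissue homogenates. Per the labels' protocols, total RNA was extracted from the tissue and stranded messenger RNA libraries were made. Per the submitters' processing notes, Trimmomatic, HISAT2 and featureCounts were used with the mouse build GRCm38, while the strand setting, annotation and versions are not stated there. The deposited counts were checked to be whole numbers, and every column was matched to a title by its library name.

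The 8 female vehicle libraries were fitted alone in R 4.3.3 with edgeR 4.0.16. Genes passed filterByExpr (minimum count 10, total 15), libraries were scaled by TMM, and a robust quasi-likelihood F test with 1 coefficient per group gave two-sided p-values, adjusted by Benjamini and Hochberg over 18134 genes. They measure the spread between mice. CPM use the TMM scaling, log2 CPM add a prior count of 2, and SE belongs to a log2 fold change. GC content and length were those of a gene's longest GENCODE M21 transcript, matched by symbol for 95.5% of tested genes. Their trends were removed with splines of 5 degrees of freedom where stated. Genes with near-identical copies share reads.

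The same fit was made for male vehicle and for female D4F mice, and an interaction with sex over 16 vehicle libraries. Alternatives were other scalings, filters and tools (DESeq2 1.42.0, limma 3.58.1), wider fits, depth terms, thinning, a replicate block and leaving out each library. The fit was tested on simulated data. The members and the 30 gene lists (667 symbols, all found in the table) were chosen with earlier results of these data known. Named genes were the 5 with the smallest p each way, up to 4 of smallest p per list, fixed genes and those of the interaction and the sex check. Some of them are left out.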

Additional observations from a re-analysis of the deposited data

Results flagged for a closer look

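Within groups of 4, a library stood apart in 20 of 208 comparisons (genes named here, library measures and marker sums), where chance gives about 1 in 20. E3/3 replicate 4 stood apart from the other E3/3 libraries in total counts (35.8 M), Xpo1 (72.3 CPM), Wdtc1 (71.6 CPM), mt-Rnr2 (5117 CPM), Bc1 (1.58 CPM) and the heat shock gene Hsp90ab1 (1290 CPM), and in the summed markers of choroid plexus (248.5 CPM) and cerebellum (4.35 CPM). E3/3 replicate 1 stood apart in Pltp (113 CPM), Gfap (226 CPM), and the summed markers of striatum (1257 CPM) and meninges (48.3 CPM). E4/4 replicate 1 stood apart from the other E4/4 libraries in Lrp1 (508 CPM), Hk1 (404 CPM), Flt1 (68.1 CPM) and Ppp1r37 (200 CPM). E4/4 replicate 2 did so in olfactory bulb markers (26.8 CPM), replicate 3 in choroid plexus markers (224.5 CPM) and Pdgfrb (20.7 CPM), and replicate 4 in Atp5d (146 CPM).

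Gm47283 was the only gene whose genotype difference differed between the sexes by the interaction test, at 2.80 on the log2 scale (edgeR, adjusted p = 0.030). Its adjusted p lay between 0.00377 and 0.878 over 20 alternatives. It was not called in the fit of 32 libraries, with depth class there or with the replicate block. With 1 library left out, a call remained only without E4/4 female replicate 4, E4/4 male replicate 3 or E4/4 male replicate 4.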

How the results depend on the processing

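Genes called between E4/4 and E3/3 in female vehicle mice (0 in the 8 libraries) numbered 2097 in the fit of 32 libraries, 706 in that of 16 vehicle libraries, 990 with DESeq2, 294 with no filter on low counts, and 1014 or 780 with log2 depth or depth class as a covariate in 32 libraries. Leaving out 1 library gave 0 to 1701 calls, with 1701 without E3/3 replicate 4, 2 without E3/3 replicate 1 and 0 otherwise. Without both E4/4 replicate 1 and E3/3 replicate 4, an alternative chosen after seeing the data, 2241 were called. Other scalings, limma-voom, the stricter filter, thinning, removal of GC and length trends, the higher-depth libraries and, chosen after seeing the data, depth class within the 8 libraries gave 0. Genes at an unadjusted p below 0.05 (3504) numbered 1801 in the higher-depth libraries, where the lone E3/3 library is taken to vary as other groups do, 1948 with GC and length trends removed, 1297 with those and the replicate block, and 1363 with depth class in the 8 libraries. They ranged from 2332 to 4464 when 1 library was left out, and were 5032 without both named libraries. The cause of these shifts was not tested. Same-numbered libraries did not deviate together (correlations −0.495, −0.189, −0.151 and −0.134), so the numbers do not pair them. The replicate block gave 0 calls in the female contrast and 0 in the interaction. The interaction with sex called 0 genes in 32 libraries, 0 with depth class there, 1 with limma-voom and 0 to 1 with 1 library left out. Differences in library measures kept their sign without any 1 library.

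Of 2067 values of 83 genes named by the rule under alternatives, 347 became calls in the same direction and 29 turned direction, in 9 genes. In the higher-depth libraries Apoe was 0.10, Gapdh 0.0081, Gfap 0.34, Trem2 0.35, C1qa 0.25, Etv1 −0.041, Bc1 0.68 and Calr 0.050. With GC and length trends removed Apoe was 0.12, Gfap 0.18 and Trem2 0.0024, and with the replicate block as well 0.083, 0.22 and 0.0088. Gfap was 0.036 with limma-voom, 0.054 with the replicate block, 0.010 thinned, 0.019 with log2 depth, 0.074 with depth class and 0.029 without both named libraries. Trem2 was 0.018 with log2 depth and 0.054 with depth class. With 1 library left out the range was −0.26 to 0.063 for Apoe, −0.0061 to 0.044 for Abcg1, −0.11 to 0.31 for Gfap and −0.13 to 0.12 for Trem2.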

Other observations

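Further gene lists were set against all genes, of which 10.4% were higher and 8.97% lower in E4/4 than in E3/3 female vehicle brains at an unadjusted p below 0.05. Among 16 apolipoproteins and lipid-remodelling genes 3 were higher and 1 lower at that p (median log2 fold change 0.04). Of 34 cytosolic ribosomal protein genes 1 was higher and 4 lower (median −0.08), many of them with pseudogene copies. Of 20 immediate early genes, which neurons induce on activity, 1 was higher and 1 lower (median −0.24), and 11 hypothalamic neuropeptide genes had 1 higher and 1 lower (median 0.08).

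The choroid plexus secretes cerebrospinal fluid, and its summed markers differed widely between mice of 1 group (3.85 to 248.5 CPM in E3/3). Whether the amount of this tissue differed was not tested. Of 17 choroid plexus genes 1 was higher and 1 lower at that p (median −0.14, and 0.53 without E3/3 replicate 4). The 14 genes of ciliated ependyma had 0 of each (median −0.01). The same choroid plexus list had a median of 1.89 in male vehicle mice and 1.97 in female D4F mice. These medians are values, and no difference between them was tested.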
